A study of Mus musculus with 6 samples.

Results

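The VEGF, angiopoietin and apelin genes of mouse skin are described here as 9 genes taken by symbol from the deposited table of 57010 genes: the vascular endothelial growth factor ligands Vegfa, Vegfb, Vegfc and Pgf, the angiopoietins Angpt1 and Angpt2, the angiopoietin-like gene Angptl4, and apelin (Apln) with its receptor Aplnr. Each symbol matched 1 row, and all 9 met the filter for testing (1 TPM or more in 3 or more of the 6 libraries), as did 15323 genes in all. The values are TPM, a length-normalized measure of transcript abundance, which divides reads by gene length and scales every library to the same total. The samples were skin of control mice (CON, 3 libraries, called wild type in the labels) and of mice given imiquimod (MOD, 3 libraries). Imiquimod is a Toll-like receptor 7 agonist that causes psoriasis-like inflammation on mouse skin, and MOD animals had 62.5 mg put on shaved back skin over 6 days in a row. The sources used here give no strain, sex or age, nor do they state whether each library is a separate animal, and the p-values therefore measure the spread between these libraries, which may be technical.

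VEGF ligands are secreted dimers that act on receptor tyrosine kinases of blood and lymphatic endothelium and drive vessel growth and leakiness. Angiopoietin-1, made by cells around the vessel, keeps vessels quiet through the receptor Tie2 (gene Tek), while angiopoietin-2, stored and released by activated endothelium, often opposes it. Apelin is a peptide made by sprouting endothelium, and its G protein-coupled receptor sits on endothelial cells. In psoriasis, keratinocyte VEGF-A and a dense, dilated plexus of dermal vessels are textbook features.

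The upstream sequences of Vegfa and Vegfb are shown because both ligands rose and neither window overlaps an annotated exon. RefSeq promoter windows were matched for 5 of the 9 genes (Vegfa, Vegfb, Vegfc, Pgf and Apln, with 7 windows), and the 250 bases before the start are printed 5′ to 3′ in the sense of the gene. The Vegfa window is chr17:46032378-46032627 on the minus strand and the Vegfb window chr19:6987652-6987901 on the minus strand, both of build GRCm38.p6. Capitals mark GGGCGG on either strand, the GC box.
Vegfa: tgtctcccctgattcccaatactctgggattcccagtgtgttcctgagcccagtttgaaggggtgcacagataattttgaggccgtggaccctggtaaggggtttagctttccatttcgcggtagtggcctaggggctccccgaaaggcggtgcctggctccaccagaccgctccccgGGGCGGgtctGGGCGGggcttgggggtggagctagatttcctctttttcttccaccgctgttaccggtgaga
Vegfb: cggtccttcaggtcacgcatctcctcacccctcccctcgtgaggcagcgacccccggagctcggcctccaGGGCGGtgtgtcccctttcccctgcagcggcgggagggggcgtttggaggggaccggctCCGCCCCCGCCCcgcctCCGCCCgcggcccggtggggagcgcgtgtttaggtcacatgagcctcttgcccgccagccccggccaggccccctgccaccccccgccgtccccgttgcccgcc

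Vegfa has 2 such matches, the farther one starting 72 bases before the start, and Vegfb has 4, from 180 to 104 bases before it, of which an adjoining pair makes 1 unbroken run of capitals. GGGCGG was searched after the sequences had been seen and occurs in 6 of the 7 windows of these genes and in 32.7% of 32851 windows of all genes. The letters ACGTG, a form of the core that hypoxia-inducible factors bind, were searched on both strands without allowing mismatches. Other forms of the core, such as GCGTG, were not searched, so the counts of ACGTG do not show where the core is absent. ACGTG is in neither sequence above and in 1 of the 7 windows, the other Vegfa window (chr17:46025164-46025413, minus strand, overlapping annotated exons and not printed), and in 16.6% of all windows. The GC content is 59.2% for the Vegfa sequence and 76.4% for the Vegfb sequence, against a median of 52.4% over all windows.

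The control libraries were not alike. H2-Ea, an MHC class II gene, reached 194 TPM in CON 1 and 162 TPM in CON 3, whereas CON 2 and all MOD libraries list it at 0. The main differences are therefore also given from a fit with a term for this split, in which MOD is in effect set against CON 2 alone. No MOD library shares the H2-Ea side of CON 1 and CON 3, so on that side no comparison exists. A difference in strain or batch that this split may mark cannot be told apart from the treatment in the pooled values, which hold both. Scaling matters as well, since the median log2 difference of all tested genes was -0.31 in TPM and 0.003 after median-of-ratios scaling, which brings the typical gene of each library to the same level. The basal keratins expected of skin were abundant in all libraries, Krt5 at 1264 to 1972 TPM and Krt14 at 1132 to 3057 TPM. Skeletal muscle transcripts were also abundant and were higher in MOD. Of 10 muscle markers 8 rose, where 12.5% of all tested genes were called higher. The summed level of the markers lay between 2636 and 9299 TPM in the controls and from 18917 up to 28568 TPM in MOD, and none was at 0. Under the H2-Ea term 4 of the 10 muscle markers passed. In bulk tissue, more cells of a type and more RNA per cell cannot be told apart.

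In MOD, 5 of the 9 genes rose (Vegfa, Vegfb, Pgf, Angpt2 and Aplnr), Angptl4 fell, and Vegfc, Angpt1 and Apln did not pass the threshold (limma on log2(TPM + 1), Benjamini-Hochberg adjusted p below 0.05 over all tested genes). Across all tested genes 12.5% were called higher and 36.1% lower. Higher genes thus made 25.7% of all calls, but 51.9% after median-of-ratios scaling, 47.0% after quantile normalization and 35.2% without the 20 most abundant genes. Under the H2-Ea term 1 of the 9 was called, Angpt2, higher, where 4.35% of all genes were called higher and 17.9% lower. After median-of-ratios scaling 7 were called higher and 0 lower, against 20.2% and 18.7% of all genes. The 6 genes called in TPM are those whose CON and MOD libraries did not overlap, 5 with every MOD library above every CON library (15.5% of all tested genes) and 1 below (44.0%). The median log2 difference of the 9 was 0.67 in TPM, 0.50 under the H2-Ea term and 0.95 after median-of-ratios scaling.

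**Figure D1:**
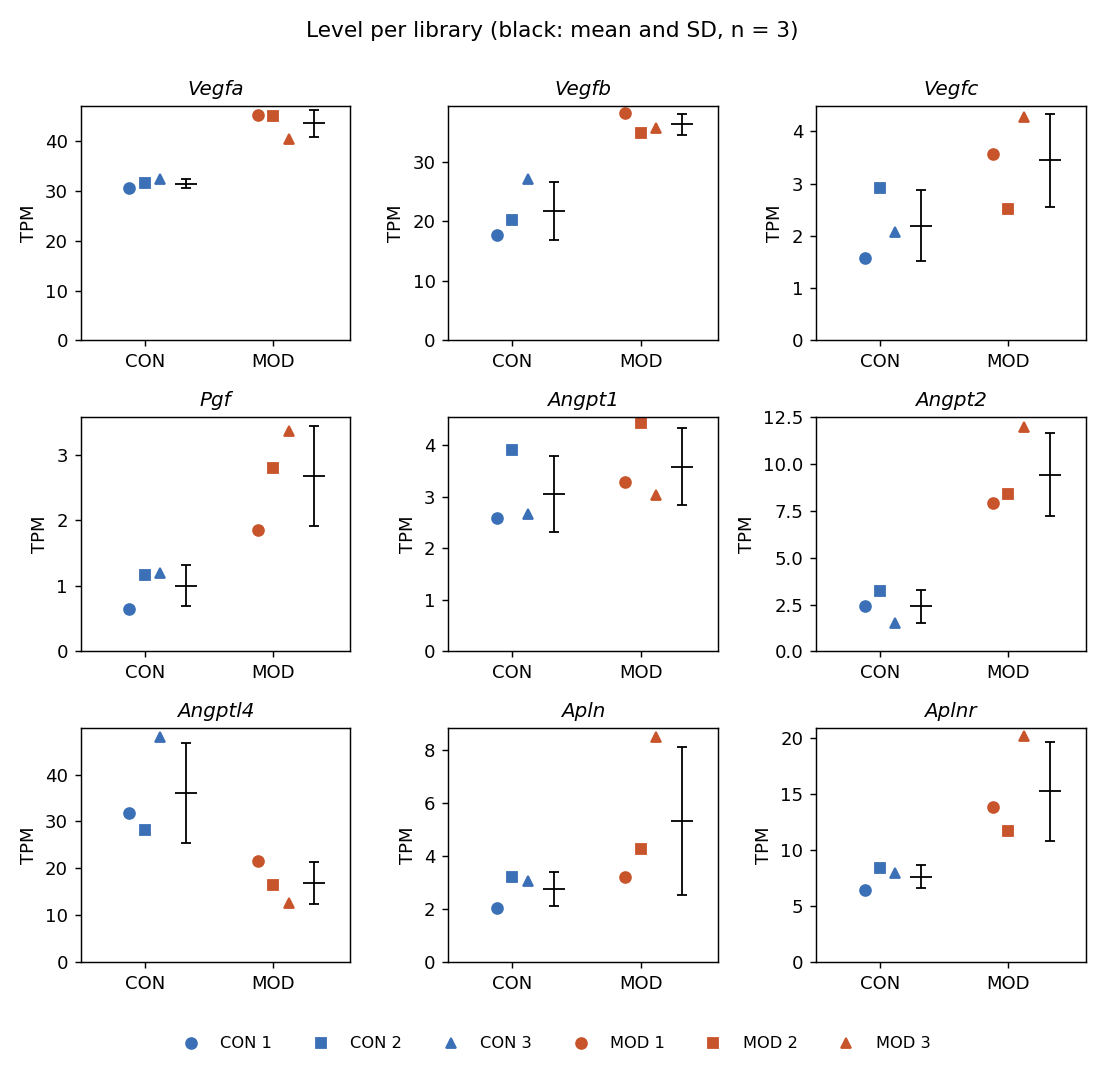
TPM of the 9 genes in each library (blue, CON; red, MOD; marker shape, library number; black bar, mean and SD of 3 libraries), each panel with its own axis from 0. Angpt2 in MOD (7.94 to 11.98 TPM) lies well above CON (1.51 to 3.24 TPM), Angptl4 lies below, and Angpt1 overlaps.

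Vegfa, the main angiogenic ligand of skin, stood at 30.5, 31.5 and 32.4 TPM in CON 1 to 3 and at 45.2, 44.9 and 40.4 TPM in MOD 1 to 3. The control values lay close together and below all MOD values. The mean rose 1.38-fold, from 31.4 ± 0.936 to 43.5 ± 2.66 TPM (SD, n = 3), with a log2 difference of 0.45 (limma adjusted p = 0.016), or 0.76 above the median of all genes. The size was the same under the H2-Ea term (0.45), where the call was lost (adjusted p = 0.10). The call also went without CON 1 (adjusted p = 0.051), without MOD 1 (0.063) and without MOD 2 (0.062).

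Vegfb, a ligand of VEGF receptor 1 that is abundant in muscle and fat, stood at 17.8, 20.2 and 27.2 TPM in the controls, against 38.3, 35.0 and 35.7 TPM in MOD. The groups did not overlap, and the mean rose 1.67-fold (log2 difference 0.74, SE 0.17, limma adjusted p = 0.013). Under the H2-Ea term the difference was 0.82 (adjusted p = 0.067), and without MOD 1 the adjusted p was 0.053. Among the controls Vegfb was lowest in CON 1 and highest in CON 3, as was the summed level of the 10 muscle markers (2636, 4352 and 9299 TPM in CON 1 to 3, and 28568, 18917 and 23611 TPM in MOD 1 to 3). The part of muscle RNA in the Vegfb difference was not tested.

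Pgf, placental growth factor, had the lowest mean of the 9 in both groups, although it lay above Vegfc in MOD 2 and above Angpt1 in MOD 3. It stood at 0.65, 1.16 and 1.20 TPM in the controls, against 1.85, 2.79 and 3.36 TPM in MOD. All MOD values exceeded all CON values, and the mean rose 2.66-fold (log2 difference 0.86, limma adjusted p = 0.019). Near 1 TPM the added pseudocount shrinks the difference, which was 1.33 with a pseudocount of 0.1. The call was lost without CON 1 (adjusted p = 0.059), MOD 2 (0.062) or MOD 3 (0.056), without the filter on low values (0.061) and under the H2-Ea term (log2 difference 0.74, adjusted p = 0.14).

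Vegfc, a ligand of lymphatic endothelium through VEGF receptor 3, stood at 1.58, 2.92 and 2.08 TPM in the controls, against 3.56, 2.51 and 4.28 TPM in MOD. MOD 2 lay below CON 2, so the groups overlapped, and the log2 difference of 0.48 did not pass (limma adjusted p = 0.13). It passed after median-of-ratios scaling (0.74, adjusted p = 0.038) and quantile normalization (0.67, adjusted p = 0.044), and was 0.16 under the H2-Ea term (adjusted p = 0.71). In the same libraries the lymphatic markers gave no call in the main TPM fit: of 6 listed, 5 were tested and 0 rose or fell. Their summed levels were 147 to 255 TPM in the controls, against 83.3 to 169 TPM in MOD. The fit without MOD 3 called 1 of them lower, as did the fit with a filter of 1 TPM in all 6 libraries. The lymphatic transcription factor gene Prox1 was below 1 TPM in all libraries.

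The 4 ligands together summed to 50.5, 55.8 and 62.8 TPM in CON and to 88.9, 85.2 and 83.8 TPM in MOD. Vegfa made up 56.1 ± 4.45% of this sum in CON and 50.6 ± 2.25% in MOD, Vegfb 38.2 ± 4.41% and 42.2 ± 1.07%, and Pgf 1.76 ± 0.418% and 3.12 ± 0.973% (SD, n = 3). The ratio of Vegfa to Vegfb, which does not depend on library scaling, was 1.71, 1.56 and 1.19 in the controls, against 1.18, 1.28 and 1.13 in MOD. These ratios overlapped between the groups, with CON 3 close to the MOD libraries. The log2 ratios with 1 TPM added, which were tested, also overlapped (exact permutation test, two-sided, p = 0.20, adjusted p = 0.31 over 11 ratios tested). With 3 libraries against 3 such a test cannot go below 0.10.

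Among the receptors, Flt1 (VEGF receptor 1, which binds VEGF-A, VEGF-B and placental growth factor) rose, while Kdr (VEGF receptor 2, the main signalling receptor of VEGF-A) did not pass. Flt1 was at 4.15, 5.75 and 3.59 TPM in the controls, against 11.3, 8.11 and 10.8 TPM in MOD (log2 difference 1.02, limma adjusted p = 0.0084; 0.70 and adjusted p = 0.092 under the H2-Ea term). Kdr was at 8.05, 9.67 and 6.99 TPM in the controls, against 8.97, 7.96 and 14.8 TPM in MOD, with only MOD 3 above all controls (log2 difference 0.29, adjusted p = 0.36). Under the H2-Ea term the Kdr difference was 0.07. The ratio of Kdr to Flt1 was 1.94, 1.68 and 1.95 in CON, whereas it was 0.79, 0.98 and 1.36 in MOD. All MOD ratios lay below all CON ratios, and the exact permutation p was 0.10, the smallest this design gives (adjusted p = 0.22 over 11 ratios).

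Nrp2, neuropilin-2, a co-receptor for VEGF-C and for semaphorins, fell from 33.0, 42.3 and 25.7 TPM in CON to 12.5, 13.6 and 15.9 TPM in MOD. Its log2 difference was -1.19 (limma adjusted p = 0.0048), it kept its call under the H2-Ea term (-1.54, adjusted p = 0.017) and after median-of-ratios scaling (-0.85, adjusted p = 0.010). The related co-receptor gene Nrp1 was at 14.4 ± 4.75 TPM in the controls, against 21.1 ± 0.282 TPM in MOD, with no overlap but without passing (0.58, adjusted p = 0.080). It passed after median-of-ratios scaling (0.91, adjusted p = 0.016) and quantile normalization (adjusted p = 0.013), and the difference was 0.14 under the H2-Ea term. Flt4, the receptor of VEGF-C, was low throughout, at 1.94, 3.44 and 1.5 TPM in the controls, against 2.32, 1.62 and 2.54 TPM in MOD. Its log2 difference of -0.03 did not pass, and its sign was positive after each other scaling. Under the H2-Ea term the Flt4 difference was -0.50. Vegfd, the remaining VEGF ligand, rose from 5.14, 9.69 and 5.87 TPM to 14.98, 13.5 and 9.57 TPM (0.81, limma adjusted p = 0.040). However, MOD 3 lay below CON 2, and the Vegfd call went without CON 1, CON 3, MOD 1 or MOD 2. It was also lost under the H2-Ea term (0.34). Of this group of 6 genes 2 rose and 1 fell, against 12.5% and 36.1% of all tested genes. Their median was 0.43, against -0.31 for all genes.

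**Figure D2:**
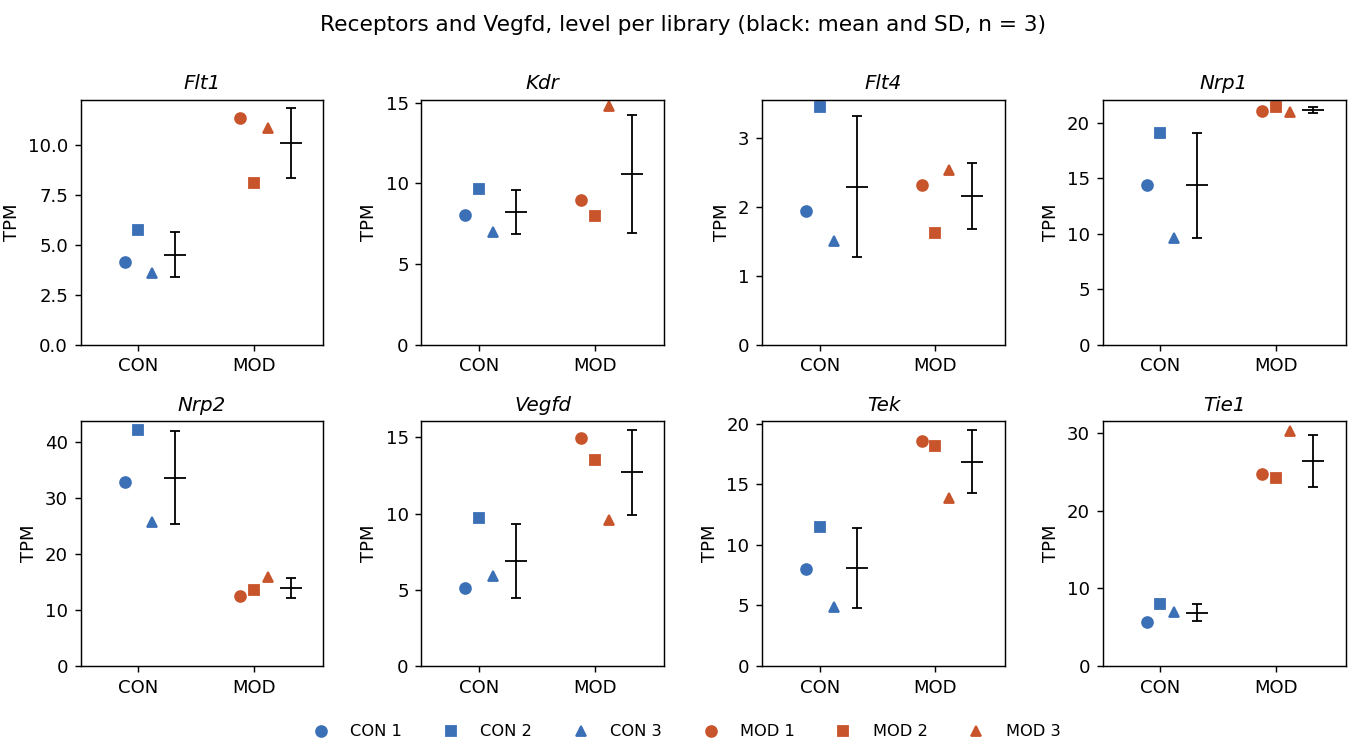
TPM of 7 receptor genes and Vegfd in each library, with the symbols of the plot of the 9 genes (black bar, mean and SD of 3 libraries). Flt1, Tek and Tie1 lie higher in MOD, Nrp2 lies lower, and Kdr and Flt4 overlap between the groups.

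Of the 9 genes, Angpt2 changed most and Angpt1 did not pass. Angpt2 stood at 2.45, 3.24 and 1.51 TPM in the controls, against 7.94, 8.41 and 11.98 TPM in MOD. The lowest MOD library was above the highest control, and the mean rose 3.93-fold, from 2.40 ± 0.866 to 9.44 ± 2.21 TPM (log2 difference 1.63, limma adjusted p = 0.0035). Against CON 2, the control with the most Angpt2, the MOD mean was 2.91 times as high, and the log2 difference under the H2-Ea term was 1.28 (adjusted p = 0.040). Its call held in all 17 alternative fits, with log2 differences from 1.28 to 1.97 and adjusted p-values from 0.0019 to 0.040. Angpt1 stood at 2.59, 3.90 and 2.67 TPM in the controls, against 3.29, 4.44 and 3.03 TPM in MOD, with overlapping groups (0.18, adjusted p = 0.49) and a negative sign under the H2-Ea term (-0.11).

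The ratio of Angpt2 to Angpt1 was 0.95, 0.83 and 0.57 in the controls, against 2.41, 1.89 and 3.95 in MOD. Angpt1 thus had the higher level of the pair in every control library and Angpt2 in every MOD library. The log2 ratio of the values with 1 TPM added differed by 1.45 between the groups (exact permutation test, two-sided, p = 0.10, the smallest possible, adjusted p = 0.22 over 11 ratios), and by 1.39 between MOD and CON 2.

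The receptors of the angiopoietin system rose as well. Tie1, a receptor that modulates Tie2, rose from 5.70, 7.92 and 6.92 TPM to 24.7, 24.2 and 30.3 TPM (log2 difference 1.81, limma adjusted p = 0.0011; 1.61 and adjusted p = 0.015 under the H2-Ea term). Tek, which encodes Tie2, rose from 8.02, 11.4 and 4.86 TPM to 18.6, 18.1 and 13.9 TPM (1.03, adjusted p = 0.024), a call that went without CON 1, MOD 1 or MOD 2 and under the H2-Ea term (0.51, adjusted p = 0.26). Ptprb, an endothelial phosphatase that dampens Tie2, rose from 4.44 ± 1.42 to 10.9 ± 1.90 TPM (1.15, adjusted p = 0.0078; 0.76 and adjusted p = 0.081 under the H2-Ea term). With Angpt4, which did not pass, 3 of these 4 genes rose and 0 fell, against 12.5% and 36.1% of all tested genes. Their median was 1.09.

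**Figure D3:**
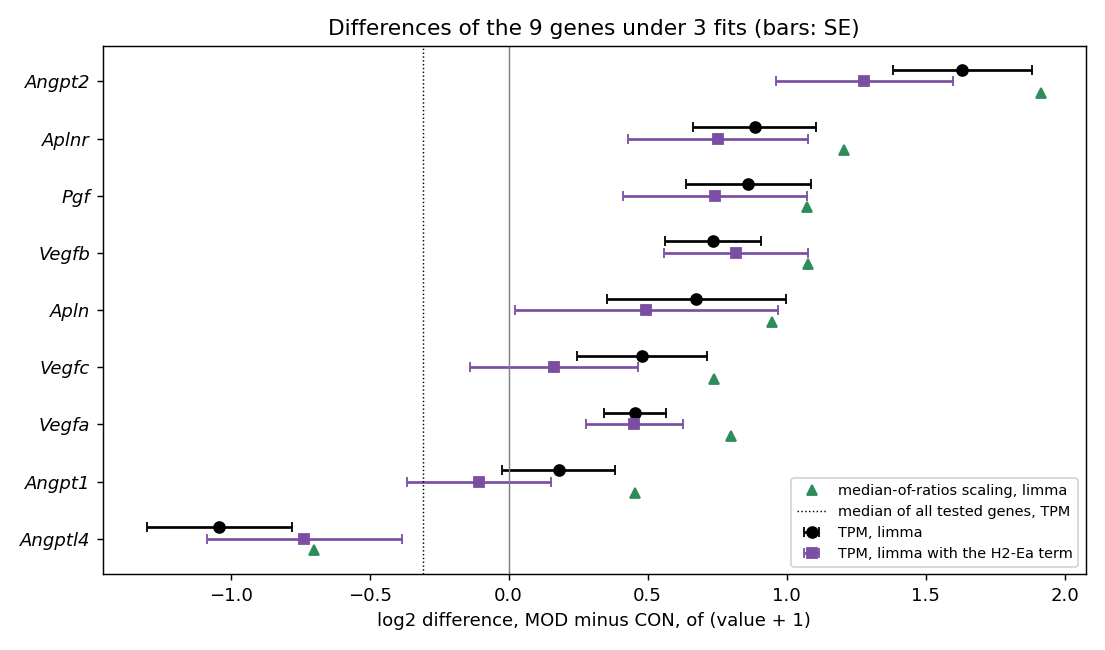
Log2 differences, MOD minus CON, of the 9 genes in TPM (black, with SE), under the H2-Ea term (purple, with SE) and after median-of-ratios scaling (green), with the dotted line at the median of all genes in TPM (-0.31). Angpt2 is the farthest to the right, Angptl4 is the 1 gene below 0 in all fits shown, and Angpt1 changes sign under the H2-Ea term.

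Of the apelin pair, the receptor passed the test and the ligand did not. Aplnr, the apelin receptor, stood at 6.50, 8.44 and 8.02 TPM in the controls, against 13.9, 11.7 and 20.2 TPM in MOD. The groups did not overlap, and the mean rose 2.00-fold (log2 difference 0.89, limma adjusted p = 0.016; 0.75 and adjusted p = 0.13 under the H2-Ea term), a call narrowly lost without CON 1 (adjusted p = 0.051). Apln stood at 2.03, 3.22 and 3.05 TPM in the controls, against 3.20, 4.28 and 8.49 TPM in MOD. MOD 1 was level with CON 2, MOD 3 stood far above the rest, and the log2 difference of 0.67 did not pass (adjusted p = 0.12). Without MOD 3 it was 0.34 (adjusted p = 0.28), and after median-of-ratios scaling it was 0.95 (adjusted p = 0.046). The ratio of Apln to Aplnr was 0.31 to 0.38 in the controls, against 0.23 to 0.42 in MOD, so a difference between the responses of ligand and receptor was not shown (exact permutation test, two-sided, p = 0.50, adjusted p = 0.55 over 11 ratios).

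Apela, the other ligand of the apelin receptor, stayed below 1 TPM in all libraries and was not tested.

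Angptl4, a secreted inhibitor of lipoprotein lipase that is induced by fasting, fatty acids and low oxygen, was the highest of the 9 on average in CON and the one that fell. It stood at 31.8, 28.2 and 48.1 TPM in the controls, against 21.6, 16.5 and 12.7 TPM in MOD. Every MOD library was below every control, and the mean was 2.13 times as high in CON as in MOD (limma log2 difference -1.04, SE 0.26, adjusted p = 0.017). The sign was negative in all 17 alternative fits, from -1.22 to -0.69, but the call was lost after median-of-ratios scaling (-0.70, adjusted p = 0.10), after quantile normalization (-0.69, adjusted p = 0.11) and under the H2-Ea term (-0.73, adjusted p = 0.16). Relative to the median of all genes the difference was -0.73. Adipocyte markers, from a cell type rich in Angptl4, gave 0 calls among 8 genes (median 0.53, summed levels 4272 to 4764 TPM in the controls, against 5120 to 9666 TPM in MOD, none at 0). Other fits called adipocyte markers higher, 5 of them without MOD 3, 4 after median-of-ratios scaling and 2 each after quantile normalization, without the 20 most abundant genes and with a replicate block.

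Other angiopoietin-like genes included several that rose. Of 9 genes of this family and its lipase partners 8 were tested, 4 rose and 0 fell, against 12.5% and 36.1% of all tested genes. Their median was 0.38. Angptl1, a relative with vessel-restraining activity, rose from 3.92, 5.49 and 1.89 TPM to 19.0, 17.8 and 10.7 TPM (log2 difference 1.86, limma adjusted p = 0.0061; 1.34 and adjusted p = 0.067 under the H2-Ea term). Angptl2 rose from 37.1 ± 8.71 to 60.2 ± 4.96 TPM (0.70, adjusted p = 0.018), and Angptl8, a partner of the lipase inhibitors, from 6.46 ± 3.93 to 20.7 ± 12.6 TPM (1.505, adjusted p = 0.040). The Angptl2 call went without CON 1 or MOD 3, and the Angptl8 call without CON 1, CON 3, MOD 2 or MOD 3. Neither passed under the H2-Ea term (0.34, adjusted p = 0.19, and 0.70, adjusted p = 0.38). With that term 0 of the 8 genes passed.

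Genes that respond to fatty acids through PPAR receptors, a textbook input to Angptl4, gave calls in both directions. Of 12 genes 2 rose and 3 fell (median 0.12), where 12.5% of all tested genes were called higher and 36.1% lower, so the counts do not set these genes apart. After median-of-ratios scaling 4 were higher and 3 lower. Acaa2, a mitochondrial thiolase, fell from 174 ± 15.2 to 86.9 ± 7.76 TPM (log2 difference -0.998, limma adjusted p = 0.0022) and Cpt1a, the gate of mitochondrial fatty acid entry, from 32.2 ± 6.13 to 16.9 ± 0.641 TPM (-0.87, adjusted p = 0.0065). Both kept their calls under the H2-Ea term (adjusted p = 0.029 and 0.046). Fabp3, the fatty acid binding protein of muscle and heart, rose from 20.5 ± 9.63 to 83.5 ± 25.6 TPM (2.03, adjusted p = 0.0050; 2.12 and 0.040 under the H2-Ea term), beside the higher muscle markers.

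Oxygen sensing is a well known control of Vegfa, Angptl4 and Apln. Of 9 genes of this machinery 8 were tested, 1 rose and 0 fell (median -0.08), against 12.5% and 36.1% of all tested genes. After median-of-ratios scaling 4 were called higher (median 0.26), against 20.2% of all genes, and without CON 3 2 were called lower. Epas1, which encodes HIF-2 alpha, rich in endothelium, rose from 15.2, 24.0 and 17.8 TPM in CON to 40.5, 42.9 and 42.8 TPM in MOD (log2 difference 1.13, limma adjusted p = 0.0038; 0.78 and adjusted p = 0.035 under the H2-Ea term). Hif1a, whose protein is set mainly by its stability, was at 46.4, 41.4 and 23.3 TPM in the controls, against 30.8, 31.9 and 23.3 TPM in MOD, with no call (-0.31, adjusted p = 0.37). The Hif1a difference was slightly positive after median-of-ratios scaling (0.03) and -0.53 under the H2-Ea term. Without CON 3 Hif1a was called lower (limma adjusted p = 0.035).

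Of 21 hypoxia-induced genes 20 were tested, 9 rose and 1 fell, against 12.5% and 36.1% of all tested genes. Their median was 0.77, against -0.31 for all genes. Under the H2-Ea term 2 rose and 0 fell. Slc2a1, the glucose transporter GLUT1, rose from 17.5 ± 3.79 to 40.3 ± 7.09 TPM (log2 difference 1.17, limma adjusted p = 0.0052; 1.16 and adjusted p = 0.047 under the H2-Ea term). P4ha2, a collagen prolyl hydroxylase, rose from 13.4 ± 3.42 to 32.6 ± 8.35 TPM (1.23, adjusted p = 0.0080; 0.89 and 0.088 under the H2-Ea term). Aldoa, an aldolase of glycolysis that is very abundant in muscle, rose from 1853 ± 832 to 4623 ± 985 TPM (1.39, adjusted p = 0.014; 1.602 and 0.060 under the H2-Ea term, and lost without MOD 1). The part of muscle RNA in these differences was not tested. The 1 that fell was Kdm3a, a histone demethylase, named after its values were seen (-0.44, adjusted p = 0.038), and 5 of the 6 fits that left out a library lost its call. It was also lost after median-of-ratios scaling (-0.11, adjusted p = 0.49), quantile normalization (-0.09, adjusted p = 0.52), under the H2-Ea term (adjusted p = 0.073) and with a replicate block (adjusted p = 0.057), and 6 of 17 alternative fits kept it.

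Endothelial markers were higher in MOD, as were Angpt2, Aplnr and several receptors, and the part of endothelial content in those differences is addressed only by the ratios to these markers. All 12 blood endothelial markers had every MOD library above every control, 11 of the 12 rose and 0 fell (8 rose under the H2-Ea term), and their median was 1.53. Of all tested genes, 15.5% had every MOD library above every control, 12.5% were called higher and 36.1% lower. The summed level of the 12 markers was 162, 233 and 209 TPM in the controls, against 576, 528 and 671 TPM in MOD, and none of the 12 was at 0. Vwf, von Willebrand factor, which shares its storage granule with angiopoietin-2, rose from 10.0, 19.2 and 11.7 TPM to 75.8, 67.6 and 84.8 TPM (log2 difference 2.44, limma adjusted p = 0.0013). Emcn, endomucin, rose from 10.9 ± 0.781 to 46.6 ± 8.22 TPM (1.99, adjusted p = 0.00085) and Cldn5, the endothelial claudin, from 10.3 ± 2.79 to 37.8 ± 5.89 TPM (1.80, adjusted p = 0.0020). Each of the 3 also passed under that term (adjusted p = 0.0092, 0.012 and 0.023).

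**Figure D4:**
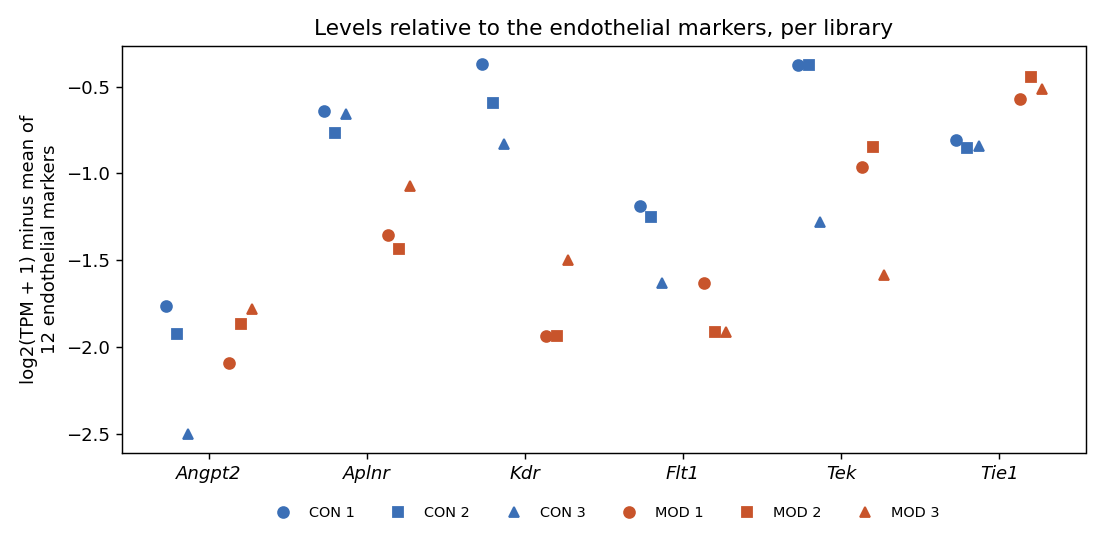
Levels of 6 endothelial genes relative to the endothelial markers, as log2(TPM + 1) minus the mean log2(TPM + 1) of the 12 markers in the same library (blue, CON; red, MOD; marker shape, library number). Kdr and Aplnr lie lower in all MOD libraries than in all controls, Tie1 lies higher, and Angpt2, Flt1 and Tek overlap.

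Set against the mean of these markers in the same library, a measure nearly free of library scaling, the vascular genes differed in direction, though none passed after adjustment. Angpt2 overlapped between groups, with a difference of 0.15 on the log2 scale (exact permutation test, two-sided, p = 0.70) and of 0.01 between MOD and CON 2. Angpt2 was low in CON (1.51 to 3.24 TPM), so the 1 TPM added shrinks its rise more than that of most markers. These small differences thus depend on the added value and do not show that Angpt2 followed the markers exactly. Aplnr was lower relative to the markers in every MOD library, by a mean of 0.60 (-0.64, -0.77 and -0.66 in CON, -1.36, -1.44 and -1.07 in MOD). Kdr was lower still, at -0.37, -0.59 and -0.83 in the controls, against -1.94, -1.94 and -1.50 in MOD. Tie1 was higher relative to the markers, from -0.81, -0.85 and -0.84 to -0.57, -0.45 and -0.51. For Aplnr, Kdr and Tie1 the exact p was 0.10, the smallest possible, with an adjusted p of 0.22 over 11 ratios, so none passed. Flt1 and Tek overlapped between the groups (exact permutation p = 0.20 and 0.30).

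Sprouting genes moved in both directions. Of 7 genes linked to endothelial tip cells and new vessels 3 rose and 1 fell (median 0.82), against 12.5% and 36.1% of all tested genes. Plvap, of fenestrated and leaky capillaries, rose from 56.7, 57.6 and 61.9 TPM to 155, 142 and 159 TPM (log2 difference 1.36, limma adjusted p = 0.00090; 1.38 and adjusted p = 0.012 under the H2-Ea term). Dll4, the Notch ligand of tip cells, rose from 1.95 ± 0.398 to 5.39 ± 1.38 TPM (1.10, adjusted p = 0.0066; 0.99 and 0.066 under the H2-Ea term). Unc5b, a netrin receptor of tip cells that is also expressed in hair follicles, fell from 46.2, 27.2 and 38.7 TPM to 3.03, 3.99 and 7.85 TPM (-2.74, adjusted p = 0.0019; -2.33 and 0.023 under the H2-Ea term). In the same libraries all 7 hair follicle markers found, of 8 listed, fell, Krt71 from 2125 ± 1694 to 0.113 ± 0.0802 TPM, Krt25 from 2037 ± 1603 to 0.183 ± 0.146 TPM and Krt27 from 1150 ± 1060 to 0.357 ± 0.0961 TPM, and their summed level lay between 2227 and 10770 TPM among the controls and between 3.40 and 13.0 TPM among the MOD libraries. The part of the follicle in the falls of Unc5b, Nrp2 and Angptl4 was not tested.

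Markers of other cells that make or answer these ligands gave differing counts, where 12.5% of all tested genes were called higher and 36.1% lower. Of 8 markers of mural cells, the pericytes and smooth muscle that make angiopoietin-1, 2 rose and 1 fell (median 0.66, summed levels 385 to 473 TPM in the controls, against 427 to 560 TPM in MOD): Rgs5 rose from 27.1 ± 1.88 to 122 ± 26.2 TPM, Abcc9 from 5.09 ± 1.04 to 12.6 ± 2.03 TPM, and Cspg4 fell from 21.0 ± 2.26 to 14.0 ± 2.85 TPM. The Cspg4 call held in 8 of 17 alternative fits and was lost after median-of-ratios scaling (-0.22, adjusted p = 0.27), under the H2-Ea term (adjusted p = 0.11) and without CON 2, CON 3, MOD 1 or MOD 2. After median-of-ratios scaling 4 mural markers were higher and 0 lower. Of 8 keratinocyte markers 1 rose and 2 fell (median -0.15, 3332 to 5296 and 5499 to 6074 TPM), Krt14 rising from 1554 ± 391 to 3038 ± 17.6 TPM while Trp63 fell from 85.9 ± 3.14 to 29.4 ± 0.760 TPM. Of 7 macrophage markers 6 rose (median 1.68, 157 to 558 and 1103 to 1473 TPM), and all 6 tested neutrophil markers rose (median 3.60, 24.2 to 75.8 and 2421 to 7565 TPM), with Retnlg listed at 0 in all controls. Macrophages are a known source of VEGF-A and placental growth factor. Of 7 fibroblast markers 1 rose, Col3a1, and 0 fell (median 0.31, 3521 to 5386 and 4798 to 7013 TPM). The numbers called higher among keratinocyte and fibroblast markers lie near the share of all genes and do not set these markers apart. Under the H2-Ea term 2 macrophage markers (median 0.93), 5 neutrophil markers, 0 keratinocyte and 0 fibroblast markers were called higher, and the calls of Krt14 (adjusted p = 0.085) and Col3a1 (adjusted p = 0.12) were lost. The parts of these cell types in the differences of the 9 genes were not tested.

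**Figure D5:**
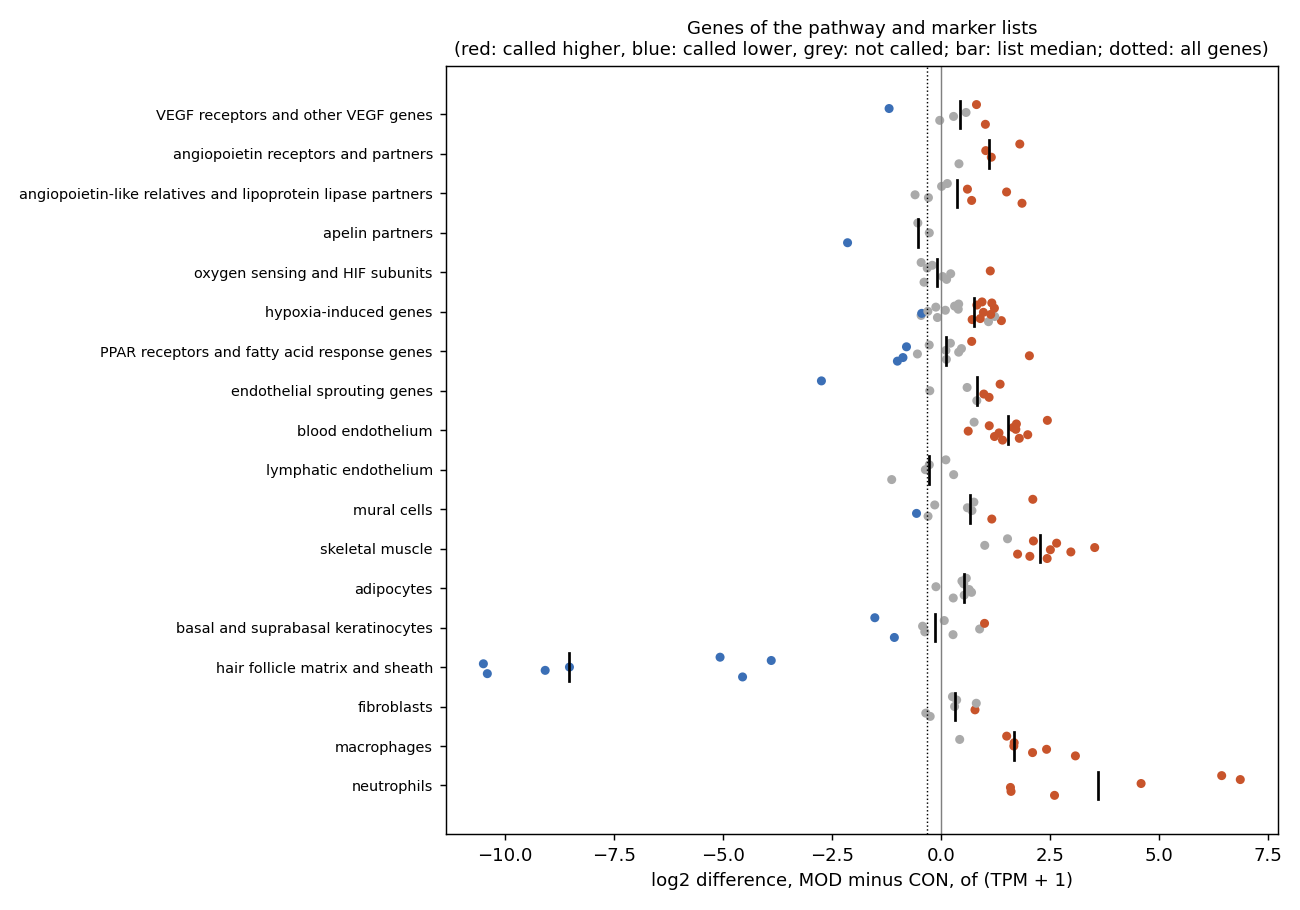
Log2 differences, MOD minus CON, of the tested genes of 8 pathway lists and 10 marker lists (red, called higher; blue, called lower; grey, not called; black bar, list median; dotted line, median of all genes, -0.31). Blood endothelial (median 1.53) and muscle (2.28) markers lie to the right, hair follicle markers (-8.51) to the left, and lymphatic markers (-0.27) gave no call.

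The order of the 9 levels differed between the groups. In CON the mean levels ran from Angptl4 (36.0 TPM) over Vegfa (31.4), Vegfb (21.7), Aplnr (7.65), Angpt1 (3.05), Apln (2.77), Angpt2 (2.40) and Vegfc (2.19) to Pgf (1.00 TPM). Angptl4 and Vegfa overlapped there, as did each neighbouring pair from Angpt1 to Vegfc. In MOD the order was Vegfa (43.5 TPM), Vegfb (36.3), Angptl4 (16.9), Aplnr (15.3), Angpt2 (9.44), Apln (5.32), Angpt1 (3.59), Vegfc (3.45) and Pgf (2.67 TPM), and neighbouring ranges overlapped from Angptl4 downwards. Angpt2 was thus 7th in CON and 5th in MOD.

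Within groups the 9 genes did not vary as a block. MOD 3 had the highest MOD value of Vegfc, Pgf, Angpt2, Apln and Aplnr, 5 of the 9, where 46.6% of all tested genes were also highest. MOD 1 had the highest MOD value of Vegfa, Vegfb and Angptl4 (18.7% of all genes) and MOD 2 that of Angpt1 (34.7%). Among controls CON 2 was highest for Vegfc, Angpt1, Angpt2, Apln and Aplnr (44.3% of all genes), CON 3 for the other 4 (30.5%) and CON 1 for none (25.2%).

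Among the genes with a pattern most like that of Vegfa, by the root mean square difference of centred log2(TPM + 1) over the 6 libraries, were A930005H10Rik (0.062) and Prdx3 (0.062). Prdx3, a mitochondrial peroxiredoxin, ran at 54.2, 61.5 and 59.9 TPM in the controls, against 84.8, 86.5 and 69.6 TPM in MOD. Those most like Angpt2 were Slfn1 (0.075), Tnfrsf1b (0.10) and Il10ra (0.10), genes known from leukocytes. Tnfrsf1b, a receptor of tumour necrosis factor, ran at 5.96, 8.26 and 4.27 TPM in the controls, against 19.1, 22.3 and 25.2 TPM in MOD. With 2 groups of 3 libraries such likeness rests mostly on the difference between the groups.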

How the data were processed

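Skin RNA of 3 CON and 3 MOD libraries was extracted with TRIzol, treated with DNase I and made into SMARTER mRNA-Seq libraries, per the labels' protocols. The authors deposited TPM values for 57010 genes in 1 table, made on build GRCm39 (per the submitters' processing notes). Aligner, annotation and counting program were not given in the sources used here. TPM keeps no depth, so depth is unknown and no counting interval is given. Columns were assigned by the names in the labels: CON 2 and CON 3 are the columns named CON3 and CON4.

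Values were analysed as log2(TPM + 1) for 15323 genes (1 TPM or more in 3 or more libraries), with limma 3.58.1 in R 4.3.3 (lmFit, eBayes with a trend, two-sided, Benjamini-Hochberg over all of them, threshold 0.05). "Rose" and "fell" mean past this threshold. The difference is on the log2(TPM + 1) scale, which understates changes of low genes. Ratios were compared by exact permutation tests (scipy 1.17.1) of log2 ratios with 1 TPM added to each value. Plain ratios are printed without the added TPM. Where a symbol had several rows (Aldoa), the most abundant was used. The fit was tested on simulated data. No 2 libraries held the same values (at most 1.02% of tested genes identical).

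The 9 genes, the 18 lists and the H2-Ea split were chosen with earlier results of these data known. Counts of the lists are to be read against the shares of all tested genes, 12.5% called higher and 36.1% lower. Of list genes, the 3 past the threshold with the largest difference are named (the 2 most abundant where none passed), with 11 fixed genes. Alternatives were pseudocounts of 0.1 and 0.5, other filters and scalings, no trend, each library left out, the H2-Ea term and a replicate block. A result of the apelin partner list and a gene with a pattern like that of Vegfa are not reported here. Promoter sequences are RefSeq's (GRCm38.p6).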

Additional observations from a re-analysis of the deposited data

How the results depend on the processing

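Under 17 alternative fits the number of genes called higher among the 9 (5) stayed at 4 to 7 except with the H2-Ea term (1) and in the fits that left out 1 library, where it ranged from 2 to 5. It was lowest, at 2, without CON 1, and 3 without MOD 1 or MOD 2. The number called lower (1) was 0 after median-of-ratios scaling, quantile normalization and with the H2-Ea term. Over all tested genes, 1914 were called higher and 5538 lower, or 3097 and 2868 after median-of-ratios scaling, 2818 and 3177 after quantile normalization, 2272 and 4190 without the 20 most abundant genes, and 667 and 2747 with the H2-Ea term. The share called higher was 25.7% of calls in TPM and 51.9%, 47.0%, 35.2% and 19.5% in these 4. Leaving out 1 library gave 1303 to 2025 higher and 3559 to 5487 lower, the lowest without MOD 1. Angpt1 had the opposite sign with the H2-Ea term (-0.11). Flt4 did so after median-of-ratios scaling (0.22), quantile normalization (0.13), without the 20 most abundant genes (0.085) and in fits that left out CON 2 (0.21) or MOD 2 (0.10), with a range of -0.21 to 0.21 over the fits that left out 1 library. So did Hif1a after median-of-ratios scaling (0.031), and Pdpn, a lymphatic marker, after median-of-ratios scaling and quantile normalization (0.074 in both). None of these genes was called in the main TPM fit, though Hif1a was called lower without CON 3 (limma adjusted p = 0.035), and the causes were not tested. The log2 ratio of Pgf to Vegfa differed by 0.41 between groups with 1 TPM added to each value, 0.86 with 0.1 and 0.95 with none. By the numbers of the sample titles, same-numbered CON and MOD libraries did not deviate together (correlations of 0.005, 0.069 and 0.066), so these numbers show no pairing. The columns of CON 2 and CON 3 carry other numbers, and a pairing by column names was not tested. A replicate block gave 1914 genes higher and 5343 lower and changed 0 calls among the 9 genes and 9 among 155 tested genes of all lists. Ccl21a and Pdpn were the lymphatic genes, and Car3 and Cfd the adipocyte genes, named for abundance. Their log2 differences were -1.13, -0.27, 0.53 and 0.70, and none was called in the main TPM fit. Myh2, Mb and Mylpf led the muscle genes (3.52, 2.98 and 2.65), Adgre1, C1qb and C1qa the macrophage genes (3.08, 2.42 and 2.10), S100a8 and S100a9 the neutrophil genes (6.86 and 6.43, beside Retnlg, listed at 0 in CON), and Dsg3 fell by 1.07. Without the filter on low values the calls of Tek, Vegfd, Angptl8 and Aldoa were lost (adjusted p = 0.060, 0.090, 0.097 and 0.057). Depth cannot be judged from TPM, and genes near 1 TPM, such as Pgf, are the least certain.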
